A study of Mus musculus with 18 samples.

Results

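The genes described here are 10 feedback and transcription factor genes of the RAS-ERK pathway, the signalling route that carries growth factor signals to the nucleus. The feedback genes are the phosphatase genes Dusp4, Dusp5 and Dusp6, the Sprouty genes Spry1, Spry2 and Spry4, and the Sprouty-related genes Spred1 and Spred2. The transcription factor genes are Etv4 and Etv5. All 10 were taken by symbol from 36047 genes with a listed transcript, and all 10 passed the filter on low counts in every comparison. The 18 RNA-seq libraries, 3 in each of 6 groups, come from 2 mouse lines of lung cancer with lowered or raised DSTYK, a protein kinase. LLC, the Lewis lung carcinoma line, comes from C57BL/6 mice and is labelled as lung adenocarcinoma. UN-SCC679 comes from A/J mice and is labelled as lung squamous carcinoma. Cells of each line carrying sh3 in the vector TPLKO and given doxycycline were set against cells carrying empty TPLKO, also given doxycycline. In UN-SCC679, cells with the construct OE_DSTYKwt in pLENTI6 were set against cells with empty pLENTI6, and the treatment label of these cells gives no agent. The DSTYK-lowering arm rests on 1 construct, and no label says whether the cells were clones or pools. Nothing in the labels ties replicates to cultures grown apart, so each p-value measures the spread of the 3 libraries, which may be technical.

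ERK, once active, phosphorylates transcription factors and switches on genes whose products restrain the same pathway. DUSP phosphatases remove the activating phosphates from MAP kinases, Sprouty proteins act between growth factor receptors and RAF, and SPRED proteins bring the RAS inhibitor neurofibromin to the membrane. ETV4 and ETV5 are ETS-family activators whose genes are held down by the repressor Capicua (CIC) until ERK relieves it. In the developing lung, FGF signalling induces Sprouty genes and Etv4 and Etv5 in the branching epithelium. DSTYK has been described in human cells as acting downstream of FGF receptors towards ERK.

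Sequence around transcription start sites was read from RefSeq (GRCm38.p6) to show which motifs of these pathways lie there. Of the members, 7 matched 8 promoters of 300 bases, 250 before and 50 after the start, with Dusp4, Spry4 and Etv4 not among them. Each was searched on both strands for 4 CIC octamers (TGAATGAA, TGAATGGA, TCAATGAA and TCAATGGA), for the shorter CIC core TGAATG, which also lies within the first pair of octamers, for the ETS motif CCGGAA, for the AP-1 motif TGANTCA, for the cyclic AMP response element TGACGTCA and for the CArG box, which is bound by serum response factor. The CIC core and the CArG box were added after the promoters had been read. The 4 promoters below are those of Dusp6, the member with the highest level in every group, of Dusp5, which differed most between the UN-SCC679 empty-vector populations, of Etv5 at the second of its 2 listed starts, and of Spry1, which fell most in UN-SCC679. Capitals mark motif matches.
Dusp6, chr10:99262981-99263280, plus strand: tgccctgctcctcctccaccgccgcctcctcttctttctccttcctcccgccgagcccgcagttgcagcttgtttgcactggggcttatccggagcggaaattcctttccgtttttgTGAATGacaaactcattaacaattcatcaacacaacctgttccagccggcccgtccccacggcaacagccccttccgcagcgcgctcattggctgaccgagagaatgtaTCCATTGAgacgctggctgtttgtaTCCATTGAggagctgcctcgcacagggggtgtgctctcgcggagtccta
Dusp5, chr19:53528895-53529194, plus strand: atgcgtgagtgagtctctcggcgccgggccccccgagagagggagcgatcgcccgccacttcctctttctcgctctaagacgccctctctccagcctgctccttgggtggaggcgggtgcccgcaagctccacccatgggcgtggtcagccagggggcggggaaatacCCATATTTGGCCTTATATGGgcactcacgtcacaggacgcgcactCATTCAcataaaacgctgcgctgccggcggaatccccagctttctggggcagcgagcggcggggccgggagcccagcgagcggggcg
Etv5, chr16:22438319-22438618, minus strand: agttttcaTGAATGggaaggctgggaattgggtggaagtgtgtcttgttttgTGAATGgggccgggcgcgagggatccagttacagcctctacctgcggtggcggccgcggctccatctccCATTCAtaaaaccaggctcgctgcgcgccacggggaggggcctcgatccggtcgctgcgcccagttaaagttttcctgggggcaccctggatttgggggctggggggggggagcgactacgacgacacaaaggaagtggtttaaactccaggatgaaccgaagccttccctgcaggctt
Spry1, chr3:37639697-37639996, plus strand: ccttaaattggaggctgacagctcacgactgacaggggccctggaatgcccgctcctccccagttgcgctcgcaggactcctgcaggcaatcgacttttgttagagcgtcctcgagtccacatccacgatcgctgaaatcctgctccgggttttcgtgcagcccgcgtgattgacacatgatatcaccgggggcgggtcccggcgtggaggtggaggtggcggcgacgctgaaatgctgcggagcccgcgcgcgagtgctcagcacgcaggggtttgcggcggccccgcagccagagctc
In Dusp6, the CIC octamer stands in reverse complement at -24 to -17 and again at 1 to 8 relative to the start, and the CIC core stands at -133 to -128. Any of the 4 octamers was found in 3.84% of 32851 promoters, and among the members also in that of Spry2. The second Etv5 start held 3 CIC cores, a motif found in 12.7% of all promoters, and Dusp5 held 1. No Etv5 transcript counted here begins at that second start (base 22438368). No motif was found at the first Etv5 start, nor in the Spred1 and Spred2 windows. The first Etv5 start (22439570) is that of transcript Etv5-204, with 0.663% of Etv5 counts or less in every library. Etv5-201, with the largest mean share in every group, begins at 22439719, inside the first window. Side by side at -82 to -73 and -72 to -63, Dusp5 carried 2 CArG boxes, which 1.63% of promoters hold. The ETS motif, present in 14.9% of promoters, was found in that of Spry2, and neither the AP-1 motif (7.81%) nor the cyclic AMP response element (1.79%) was found in a member's window. None of these letters occur in the Spry1 window. These matches describe letters in a window and say nothing of binding.

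Libraries held between 40525385 and 46528071 estimated counts. Mouse Dstyk itself averaged 7.17 ± 0.656 TPM in LLC with sh3, against 12.4 ± 0.778 TPM in LLC with empty TPLKO (SD, n = 3 each; TPM is abundance scaled for transcript length and depth), a log2 fold change of -0.89 ± 0.044 (SE; edgeR adjusted p = 9.81e-10). It averaged 7.35 ± 0.335 TPM in UN-SCC679 with sh3, against 10.2 ± 0.453 TPM with empty TPLKO, a change of -0.50 ± 0.04 (adjusted p = 5.61e-07). With OE_DSTYKwt it averaged 11.5 ± 0.152 TPM, against 8.93 ± 0.548 TPM with empty pLENTI6, a change of 0.29 ± 0.04 (adjusted p = 0.000641). The labels do not give the sequence of the overexpression construct, so how much of its RNA these counts hold is unknown. Library 1 of empty pLENTI6 stood apart from the others of its group (mean chi-square per gene of 12.2 and 13.8, against 5.04 or less for every other pair of libraries within a group). Without it, the OE_DSTYKwt difference in Dstyk was 0.25 ± 0.037 (adjusted p = 0.000223). As for the labels, the keratinocyte genes Krt5 and Dsg3 lay at 0.0327 TPM or less in every UN-SCC679 group, while Krt6a averaged between 0.339 and 59.3 TPM, Krt14 between 0.779 and 16.3 TPM and the squamous factor gene Trp63 between 0.907 and 5.98 TPM there. Sox2, another squamous factor gene, averaged between 28.2 and 69.3 TPM in those groups, and the lung factor gene Nkx2-1 between 28.1 and 42.1 TPM. In LLC, Nkx2-1 was at 0.0259 TPM or less and the surfactant gene Sftpc was at 0, and the epithelial genes Epcam and Cdh1 were at 0.195 TPM or less in all 6 groups. The other epithelial markers, Krt8 and Krt18, averaged between 247 and 519 TPM and between 99.6 and 428 TPM in the UN-SCC679 groups. In the LLC groups Krt18 averaged 40.4 and 41 TPM and Krt8 0.52 TPM or less. The leukocyte genes Ptprc and Cd3e were at 0.0591 TPM or less in all 6 groups, while Cd68, a lysosomal gene used as a macrophage marker, averaged between 2.68 and 6.75 TPM. In these bulk samples, fewer cells of a type and less RNA per cell cannot be told apart.

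In LLC with sh3, Dusp4 and Dusp6 rose most, and Spred2 fell. In UN-SCC679 with sh3, Dusp6, Etv5, Spred2 and Spred1 rose while Spry1 fell. Spry1 also fell with OE_DSTYKwt, as did Etv4. By edgeR's quasi-likelihood test with Benjamini-Hochberg adjustment over all genes (a gene is called at an adjusted p under 0.05), 6 members were higher and 2 lower in LLC with sh3, 8 of 10 in all, where 72.6% of 13767 genes tested were called, 36.2% higher and 36.4% lower. For UN-SCC679 with sh3 5 were higher and 2 lower, 7 of 10 in all, against 63.8% of 14271 genes, 31.8% higher and 32.0% lower. With OE_DSTYKwt 1 was higher and 5 were lower, 6 of 10 in all, against 29.7% of 13975 genes, 14.6% higher and 15.2% lower. The libraries of the groups did not overlap in TPM for 8 members in LLC with sh3, 6 in UN-SCC679 with sh3 and 6 with OE_DSTYKwt, against 70.3%, 62.5% and 41.7% of genes tested. The counts in the sh3 arms are therefore near the share of all genes called. At least 2-fold changes among calls were made by 12.2% of genes in LLC with sh3, by 10.3% in UN-SCC679 with sh3 and by 2.54% with OE_DSTYKwt. Among the members such a change was seen for Dusp4 in LLC, Dusp6 and Spry1 in UN-SCC679 with sh3, and Spry1 with OE_DSTYKwt. Without library 1 of empty pLENTI6, 7 members were called with OE_DSTYKwt, against 34.7% of 14210 genes, and Spry1 was at -1.51 ± 0.053, Etv4 at -0.54 ± 0.051, Spry4 at -0.33 ± 0.06, Etv5 at -0.21 ± 0.031, Dusp5 at -0.17 ± 0.029 and Dusp6 at 0.09 ± 0.023 on the log2 scale. Summed over the 10 members, levels were 719, 710 and 707 TPM in LLC with sh3, against 546, 546 and 548 TPM with empty TPLKO. In UN-SCC679 they were 172, 171 and 174 TPM with sh3, against 115, 111 and 115 TPM with empty TPLKO. With OE_DSTYKwt they were 299, 299 and 294 TPM, against 300, 314 and 321 TPM with empty pLENTI6. Dusp6 is the largest term in each of these sums.

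**Figure D1:**
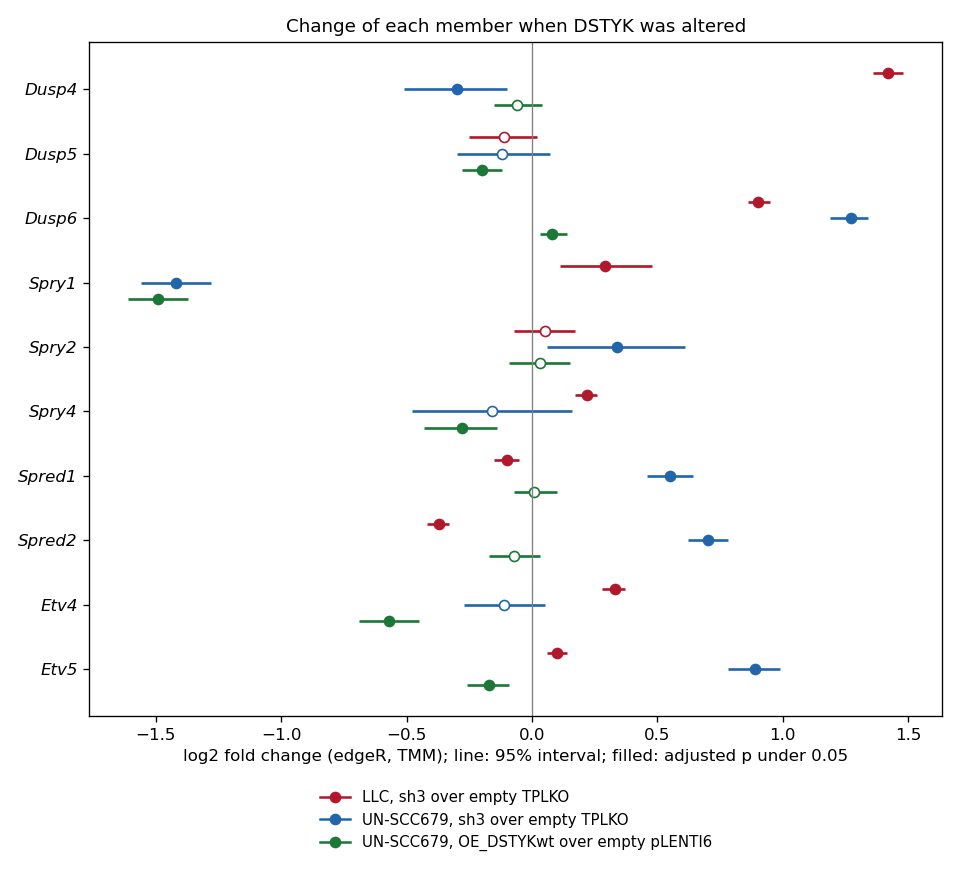
Log2 fold change of each member (horizontal axis) in the 3 comparisons of a DSTYK-altered arm with its empty vector, each with 3 libraries a group; lines are 95% intervals and filled points have an adjusted p under 0.05. Spry1 lies near -1.4 to -1.5 in both UN-SCC679 comparisons and at 0.29 in LLC, and Dusp6 lies at 0.90 and 1.27 in the sh3 arms.

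Dusp6 (chr10:99263231-99267489, plus strand; GRCm38 here and for the other genes) encodes a cytoplasmic phosphatase that acts on ERK. Its level was 228, 222 and 213 TPM in LLC with sh3, against 126, 126 and 137 TPM with empty TPLKO. The groups did not overlap, and the log2 fold change was 0.90 ± 0.02 (SE; 1.87-fold; adjusted p = 7.98e-13). In UN-SCC679, Dusp6 was at 81.8, 79.8 and 83.2 TPM with sh3, against 36.2, 31.7 and 36.2 TPM with empty TPLKO. Again the groups lay apart, with a log2 fold change of 1.27 ± 0.033 (2.41-fold; adjusted p = 3.7e-11). The rise was smaller in LLC than in UN-SCC679 by 0.37 ± 0.038 on the log2 scale, the sh3 effect in LLC minus that in UN-SCC679 being -0.37 (adjusted p = 3.56e-07). With OE_DSTYKwt, Dusp6 was at 139, 140 and 136 TPM, against 119, 126 and 130 TPM with empty pLENTI6. That difference of 0.08 ± 0.026 had an adjusted p of 0.0369, and the call was lost without a filter (0.0609), with DESeq2 (0.0705) and without any 1 of 4 libraries (0.0521 to 0.151), namely empty pLENTI6 replicates 2 and 3 and OE_DSTYKwt replicates 1 and 2. All 3 treated groups thus stood above their empty vectors, by amounts that differ widely. The sh3 effect on Dusp6 in UN-SCC679 exceeded the OE_DSTYKwt effect by 1.18 ± 0.04 (adjusted p = 1.09e-11).

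Dusp4 (chr8:34807297-34819894, plus strand), which encodes a nuclear phosphatase of MAP kinases, changed in opposite directions in the sh3 arms. It was at 87.2, 87.5 and 90.2 TPM in LLC with sh3, against 32.3, 33.3 and 34.5 TPM with empty TPLKO, a log2 fold change of 1.42 ± 0.028 (2.67-fold; adjusted p = 3.18e-13). In size this exceeded 93.5% of the genes tested there. In UN-SCC679 it was at 3.98, 4.32 and 3.63 TPM with sh3, against 5.03, 4.55 and 5.22 TPM with empty TPLKO, a change of -0.30 ± 0.093 (adjusted p = 0.0132; 0.0508 without sh3 replicate 3). The groups are close but do not overlap, at levels far below those in LLC. The effects of sh3 differed between the lines by 1.72 ± 0.081 (LLC minus UN-SCC679; adjusted p = 2.35e-11). OE_DSTYKwt cells had 16.2, 15.2 and 14.9 TPM of Dusp4, against 15, 16.1 and 16.1 TPM with empty pLENTI6, with a log2 difference of -0.06 (95% interval -0.15 to 0.04; adjusted p = 0.333).

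Dusp5 (chr19:53529109-53542431, plus strand) encodes a nuclear phosphatase that acts on ERK. Its libraries overlapped between sh3 and empty TPLKO in both lines: 8.31 to 8.96 TPM against 8.95 to 9.77 TPM in LLC, and 5.04 to 5.56 TPM against 5.31 to 6.15 TPM in UN-SCC679. The log2 differences were -0.11 (95% interval -0.25 to 0.02) in LLC and -0.12 (-0.30 to 0.07) in UN-SCC679. A small fall passed the test with OE_DSTYKwt, where Dusp5 was at 42.7, 43 and 41.1 TPM, against 48.4, 47.8 and 46.6 TPM with empty pLENTI6 (-0.20 ± 0.035; adjusted p = 0.00236). What set Dusp5 apart was its level in the pLENTI6 cells as a whole, described further on.

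**Figure D2:**
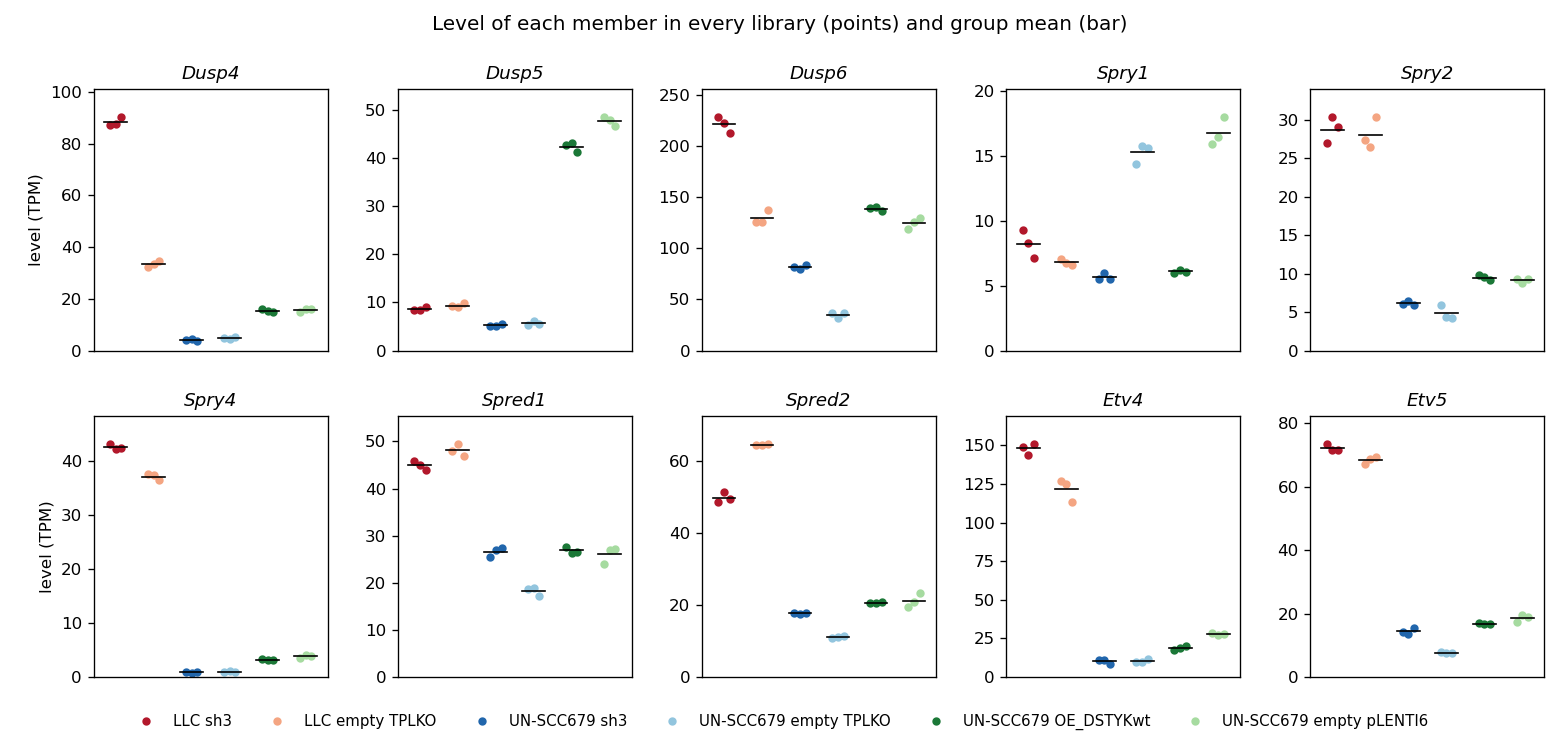
Level of each member in TPM (vertical axis, from 0) in each of the 18 libraries, with points for libraries and bars for the mean of 3; each altered group stands left of its empty vector. Dusp4, Spry2, Spry4, Spred1, Spred2, Etv4 and Etv5 are highest in LLC, Dusp5 in the pLENTI6 cells, and Spry1 in the 2 empty-vector populations of UN-SCC679.

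Of the Sprouty genes, Spry1 (chr3:37639947-37644598, plus strand) had the largest change. It was at 5.55, 5.97 and 5.54 TPM in UN-SCC679 with sh3, against 14.4, 15.8 and 15.6 TPM with empty TPLKO (log2 fold change -1.42 ± 0.065, 2.67-fold lower; adjusted p = 3.87e-09). It was at 5.98, 6.23 and 6.09 TPM with OE_DSTYKwt, against 15.9, 16.5 and 18 TPM with empty pLENTI6 (-1.49 ± 0.053, 2.81-fold lower; adjusted p = 1.24e-07). Every altered library lay far below every library of its empty vector, and no library is shared by these comparisons. In size the fall exceeded 93% of genes tested with sh3 and 98.4% with OE_DSTYKwt. The sh3 effect minus the OE_DSTYKwt effect was 0.07, with a 95% interval of -0.10 to 0.25 (adjusted p = 0.507). The falls with the constructs that lowered and raised Dstyk were thus about equal in size, within that interval. The levels reached averaged 5.69 TPM with sh3 and 6.1 TPM with OE_DSTYKwt, and their libraries did not overlap. In LLC, Spry1 was at 9.27, 8.3 and 7.15 TPM with sh3, against 7.08, 6.72 and 6.62 TPM with empty TPLKO, a small rise of 0.29 ± 0.086 (adjusted p = 0.00801) that limma on log2(TPM + 1) did not call (0.0583). The sh3 effect on Spry1 differed between LLC and UN-SCC679 by 1.71 ± 0.12 (adjusted p = 1.98e-09).

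Spry2 (chr14:105891947-105896819, minus strand) and Spry4 (chr18:38586247-38601415, minus strand) had smaller differences. Spry2 ranged over 26.9 to 30.3 TPM in LLC with sh3, against 26.4 to 30.3 TPM with empty TPLKO (adjusted p = 0.42). In UN-SCC679 it was at 6.05, 6.42 and 5.88 TPM with sh3, against 5.97, 4.35 and 4.26 TPM with empty TPLKO. The groups overlap, since library 1 of empty TPLKO lies within the sh3 range, and the call (0.34 ± 0.12; adjusted p = 0.0326) was lost without empty TPLKO replicate 2 or 3 or sh3 replicate 1 or 2 (0.069 to 0.127). With OE_DSTYKwt the range was 9.1 to 9.84 TPM, against 8.75 to 9.28 TPM with empty pLENTI6 (adjusted p = 0.698). Spry4 was at 43.1, 42.2 and 42.4 TPM in LLC with sh3, against 37.5, 37.3 and 36.4 TPM with empty TPLKO, without overlap (0.22 ± 0.022; adjusted p = 1.1e-06). In UN-SCC679 it was at 0.837 to 0.937 TPM with sh3, against 0.918 to 1.1 TPM with empty TPLKO (-0.16, 95% interval -0.48 to 0.16), from 322 and 355 counts summed over 3 libraries. OE_DSTYKwt cells had 3.42, 3.14 and 3.14 TPM, against 3.49, 4.14 and 3.94 TPM with empty pLENTI6 (-0.28 ± 0.064; adjusted p = 0.0088; 0.105 with limma).

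The make-up of the Sprouty genes differed between the lines and, within UN-SCC679, with the construct. In LLC, Spry4 held 53.6 ± 1.16% of the TPM summed over the 3 genes with sh3 and 51.6 ± 1.75% with empty TPLKO (SD, n = 3 each). In UN-SCC679, Spry1 held 44.8 ± 0.335% with sh3 and 72.3 ± 4.15% with empty TPLKO, and 32.5 ± 1.18% with OE_DSTYKwt against 56.4 ± 1.08% with empty pLENTI6. Spry2 was the largest of the 3 in both altered UN-SCC679 groups, at 48.2 ± 0.573% with sh3 and 50.4 ± 0.737% with OE_DSTYKwt. Dusp6 held between 66.3% and 89.9% of the summed TPM of the DUSP genes, on average, in every group.

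**Figure D3:**
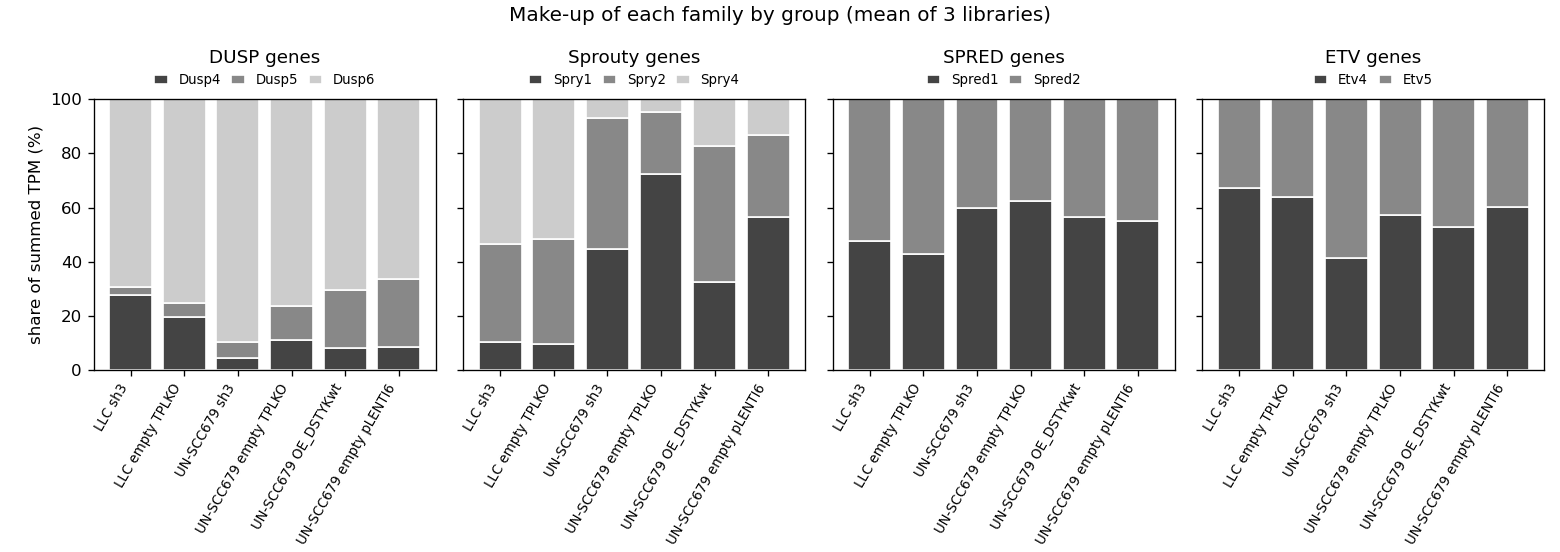
Share of the TPM summed over the genes of a family (vertical axis, percent) taken by each gene in the 6 groups, as the mean of 3 libraries; each altered group stands left of its empty vector. In the Sprouty panel Spry4 takes about the same share in both LLC groups, 53.6% and 51.6%, and Spry1 takes less in each altered UN-SCC679 group than in its empty vector.

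Spred1 (chr2:117121374-117182279, plus strand) and Spred2 (chr11:19924375-20024026, plus strand) changed in opposite directions in the sh3 arms of the lines. Spred2 was at 48.5, 51.3 and 49.3 TPM in LLC with sh3, against 64.3, 64.3 and 64.7 TPM with empty TPLKO (-0.37 ± 0.022; adjusted p = 5.58e-09). In UN-SCC679 it was at 17.9, 17.6 and 17.8 TPM with sh3, against 10.7, 11 and 11.3 TPM with empty TPLKO (0.70 ± 0.035, 1.63-fold; adjusted p = 8.39e-09). Neither pair of groups overlapped, and the effects differed by -1.08 ± 0.038 (LLC minus UN-SCC679; adjusted p = 7.88e-13). Spred1 ranged over 44 to 45.9 TPM in LLC with sh3, against 47 to 49.5 TPM with empty TPLKO (-0.10 ± 0.023; adjusted p = 0.00205). In UN-SCC679 its range was 25.4 to 27.4 TPM with sh3, against 17.2 to 18.8 TPM with empty TPLKO (0.55 ± 0.04; adjusted p = 2.08e-07), and the effects differed by -0.65 ± 0.048 (adjusted p = 5.5e-09). With OE_DSTYKwt neither gene was called. Spred1 was at 26.4 to 27.5 TPM, against 24 to 27.2 TPM with empty pLENTI6 (0.01, 95% interval -0.07 to 0.10). Spred2 was at 20.5 to 20.7 TPM, against 19.3 to 23.4 TPM (-0.07, 95% interval -0.17 to 0.03; adjusted p = 0.26), and was called as lower without library 1 of empty pLENTI6 (-0.11; adjusted p = 0.0284).

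Etv4 (chr11:101769742-101785371, minus strand) and Etv5 (chr16:22381309-22439719, minus strand) encode related ETS activators of the PEA3 group, and in UN-SCC679 with sh3 Etv5 was called and Etv4 was not. Etv5 was at 14.3, 13.7 and 15.3 TPM in UN-SCC679 with sh3, against 7.83, 7.63 and 7.47 TPM with empty TPLKO (0.89 ± 0.049, 1.85-fold; adjusted p = 2.02e-08). Etv4 was at 11.1, 10.8 and 8.68 TPM in the same sh3 cells, against 9.9, 9.53 and 11.4 TPM with empty TPLKO, with overlap (-0.11, 95% interval -0.27 to 0.05; adjusted p = 0.218). So Etv5 rose in cells where Etv4 showed no difference beyond the spread. In OE_DSTYKwt cells both were lower. Etv4 was at 17.3, 18.8 and 20.2 TPM, against 28.4, 27.4 and 27.9 TPM with empty pLENTI6 (-0.57 ± 0.054, 1.48-fold lower; adjusted p = 5.89e-05). Etv5 was at 16.9, 16.8 and 16.6 TPM, against 17.3, 19.4 and 18.8 TPM (-0.17 ± 0.037; adjusted p = 0.00696; 0.105 with limma). The sh3 effect minus the OE_DSTYKwt effect was 1.06 ± 0.062 for Etv5 (adjusted p = 3.44e-09) and 0.46 ± 0.087 for Etv4 (adjusted p = 0.000419).

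In LLC both ETV genes were high and rose slightly. Etv4 was at 149, 144 and 151 TPM with sh3, against 127, 125 and 113 TPM with empty TPLKO (0.33 ± 0.021; adjusted p = 1.27e-08). Etv5 was at 73.5, 71.4 and 71.7 TPM, against 67.2, 68.6 and 69.2 TPM (0.10 ± 0.019; adjusted p = 0.000313). The groups do not overlap for either gene. The sh3 effect in LLC minus that in UN-SCC679 was -0.79 ± 0.046 for Etv5 (adjusted p = 3.27e-10) and 0.43 ± 0.06 for Etv4 (adjusted p = 9.47e-06; 0.0542 with limma).

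Tested as differences between the lines, the sh3 effects on 8 of 10 members were called, 4 higher and 4 lower in LLC, where 59.9% of 15399 genes were called, 28.1% higher and 31.9% lower. Besides those given above, Spry4 differed by 0.38 ± 0.091 (adjusted p = 0.00195). Spry2 had a difference of -0.29 (adjusted p = 0.0768; 0.00501 without empty TPLKO replicate 1 of UN-SCC679) and Dusp5 one of 0.003 (95% interval -0.22 to 0.22). Within UN-SCC679, the sh3 effect differed from the OE_DSTYKwt effect for 6 of 10 members, 5 higher and 1 lower, against 51.9% of 14975 genes, 26.1% higher and 25.8% lower. Of these, Dusp6, Etv5, Spred2 (0.78 ± 0.06), Spred1 (0.54 ± 0.059) and Etv4 were higher. Dusp4 was lower by a margin (-0.24 ± 0.09; adjusted p = 0.0356) that was lost in 14 of 22 alternatives, among them the removal of library 1 or 3 of empty TPLKO, sh3 or empty pLENTI6, or of library 1 or 2 of OE_DSTYKwt (0.0504 to 0.104).

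The members were also set side by side in the cells of the lines that carried empty TPLKO and were given doxycycline. LLC with empty TPLKO exceeded UN-SCC679 with empty TPLKO in 9 of 10 members and was lower in Spry1, where 82.9% of 14351 genes were called, 40.9% higher and 42.0% lower. The libraries did not overlap in TPM for all 10 members, against 81.3% of genes tested. The median log2 difference of the members was 2.56, against -0.01 over all genes tested. Spry4 was 37.8-fold higher, at 37 ± 0.61 TPM in LLC against 0.986 ± 0.101 TPM in UN-SCC679. Etv4 was 11.4-fold and Etv5 8.92-fold higher, Dusp4 6.84-fold, Spred2 5.99-fold, Spry2 5.82-fold, Dusp6 3.63-fold, Spred1 2.67-fold and Dusp5 1.66-fold, while Spry1 was 2.24-fold lower in LLC. All 10 were called under every alternative run. Cell line, mouse strain and tumour type cannot be told apart here.

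The 2 empty-vector populations of UN-SCC679 also differed. They carry different vectors, and doxycycline is given for the TPLKO cells and not for the pLENTI6 cells. The deposited library names also write the line differently in the 2 sets. Vector, doxycycline, culture history and any difference in the stock of the line therefore cannot be told apart. In empty TPLKO cells 9 members were lower than in empty pLENTI6 cells and 1 was not called, where 68.7% of 14080 genes were called, 33.3% higher and 35.4% lower. The libraries did not overlap in TPM for all 10 members, against 69.5% of genes tested. The median log2 difference of the members was -1.31, against -0.01 over all genes. Dusp5 was at 5.31, 6.15 and 5.57 TPM in empty TPLKO cells, against 48.4, 47.8 and 46.6 TPM in empty pLENTI6 cells (-3.02 ± 0.056, 8.09-fold lower; adjusted p = 1.08e-10). The fold was 4.07 for Dusp6, 3.77 for Spry4, 3.09 for Dusp4, 2.64 for Etv4, 2.34 for Etv5, 1.86 for Spred2, 1.81 for Spry2 and 1.38 for Spred1, each lower in empty TPLKO cells. Spry1 was at 14.4, 15.8 and 15.6 TPM in empty TPLKO cells, against 15.9, 16.5 and 18 TPM in empty pLENTI6 cells (-0.09, 95% interval -0.21 to 0.03; adjusted p = 0.176; 0.029 with an effective length offset). Without library 1 of empty pLENTI6, 9 members were again lower, against 33.3% of 14456 genes, with Dusp5 at -2.98 ± 0.056 and Dusp6 at -2.02 ± 0.033. Spry1, the member that fell most in both altered arms of UN-SCC679, was thus at nearly the same level in both controls, within that interval. Its libraries in the controls nonetheless did not overlap in TPM. For Dusp6, Etv5 and Spred2 the sh3 cells (means of 81.6, 14.4 and 17.8 TPM) stood between the empty TPLKO cells (34.7, 7.64 and 11 TPM) and the OE_DSTYKwt cells (138, 16.7 and 20.6 TPM), with no overlap of libraries. For Spred1 the sh3 libraries overlapped those of both pLENTI6 groups.

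**Figure D4:**
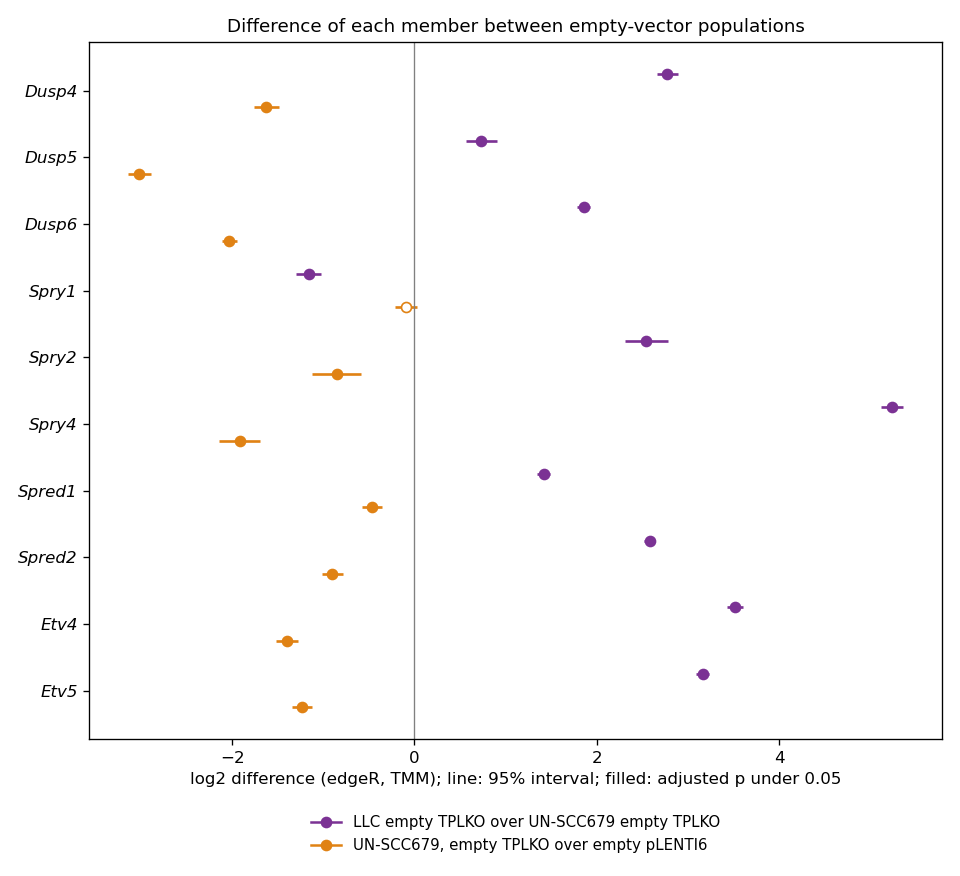
Log2 difference of each member (horizontal axis) between empty-vector populations, for LLC over UN-SCC679 with empty TPLKO and, within UN-SCC679, for empty TPLKO over empty pLENTI6; lines are 95% intervals and filled points have an adjusted p under 0.05, with 3 libraries a group. In the first, every member but Spry1 lies to the right of 0, up to 5.24 for Spry4; in the second, 9 members lie to the left, down to -3.02 for Dusp5.

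Markers of other cell types and states also moved with these groups. The 6 squamous markers (Trp63, Krt5, Krt14, Krt6a, Dsg3 and Sox2) summed to 50 to 53.3 TPM in UN-SCC679 with sh3, against 32.1 to 37.6 TPM with empty TPLKO. Of the 4 that could be tested, Trp63 and Krt14 rose by 2.62 and 2.20 on the log2 scale, Krt6a rose to 1.02 TPM, against 0.339 TPM with empty TPLKO, and Sox2 was not called. The 6 summed to 121 to 128 TPM with OE_DSTYKwt, against 116 to 120 TPM with empty pLENTI6, where Trp63, Krt14 and Krt6a rose and Sox2 fell by 0.21. The 6 fibroblast markers, with Lum at 0.0113 TPM or less in UN-SCC679, summed to 3117 to 3175 TPM with sh3, against 3883 to 3994 TPM with empty TPLKO. That sum follows Col1a2, which fell by 0.44, whereas the 4 others tested rose: Pdgfra by 3.04, Dcn by 2.27, Col1a1 by 1.05 and Pdgfrb by 0.15. With OE_DSTYKwt they summed to 1456 to 1479 TPM, against 1356 to 1464 TPM with empty pLENTI6, with 3 of 4 tested higher and Col1a2 not called. In LLC they summed to 28.3 to 29.3 TPM with sh3, against 18.5 to 20.3 TPM with empty TPLKO, with 4 of 6 higher and 2 lower (median log2 change 0.83). The 4 epithelial markers, nearly all Krt8 and Krt18, summed to 337 to 354 TPM in UN-SCC679 with sh3, against 540 to 565 TPM with empty TPLKO. They summed to 763 to 802 TPM with OE_DSTYKwt, against 931 to 966 TPM with empty pLENTI6, and to 40 to 41.8 TPM in LLC with sh3, against 39.1 to 44.2 TPM with empty TPLKO. Between the UN-SCC679 controls, Col1a1 averaged 151 TPM with empty TPLKO and 2.29 TPM with empty pLENTI6, and Krt6a 0.339 and 47.5 TPM. Of 4 fibroblast markers tested there, 3 were higher in empty TPLKO cells and 1 lower. Of 4 squamous markers, 1 was higher and 2 were lower. The part of these shifts in the members' differences was not tested.

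The wider pathway was followed through lists of other genes, described by counts of calls and medians. Over all genes tested, the shares called were 36.2% higher and 36.4% lower in LLC with sh3, 31.8% and 32.0% in UN-SCC679 with sh3, and 14.6% and 15.2% with OE_DSTYKwt, and each list's counts are read against these. Of 12 other transcriptional targets of ERK tested in LLC with sh3, 10 rose and 0 fell, while Egr1 (-0.54; adjusted p = 0.0793) and Ier2 (-0.04; adjusted p = 0.419) were not called (median log2 change 0.40, against 0.01 over all genes). Here Hbegf, which encodes an EGF receptor ligand, averaged 40.7 ± 0.546 TPM with sh3, against 11.9 ± 0.663 TPM with empty TPLKO (1.78 ± 0.04; adjusted p = 8.11e-13). The membrane protein gene Emp1 averaged 184 ± 1.78 TPM, against 103 ± 1.61 TPM. In UN-SCC679 with sh3 the list split, with 6 of 14 higher and 5 lower (median 0.04), and Hbegf fell to 6.65 ± 0.644 TPM, against 13.5 ± 0.262 TPM with empty TPLKO (-1.02 ± 0.073; adjusted p = 1.94e-07). Egr1, an immediate-early transcription factor gene, averaged 36 ± 0.35 TPM with sh3, against 3.96 ± 0.467 TPM with empty TPLKO (3.19 ± 0.062; adjusted p = 3.28e-12), while Ccnd1, the cyclin D1 gene, averaged 177 ± 3.34 TPM, against 263 ± 6.48 TPM (-0.57 ± 0.022). With OE_DSTYKwt 4 of 14 were higher and 4 lower, Lif among the higher at 56.1 ± 1.69 TPM, against 40.4 ± 1.86 TPM with empty pLENTI6. All 14 were lower in empty TPLKO cells than in empty pLENTI6 cells (median -1.16), where 35.4% of all genes were called lower, Egr1 at 3.96 ± 0.467 TPM against 90.7 ± 2.18 TPM.

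**Figure D5:**
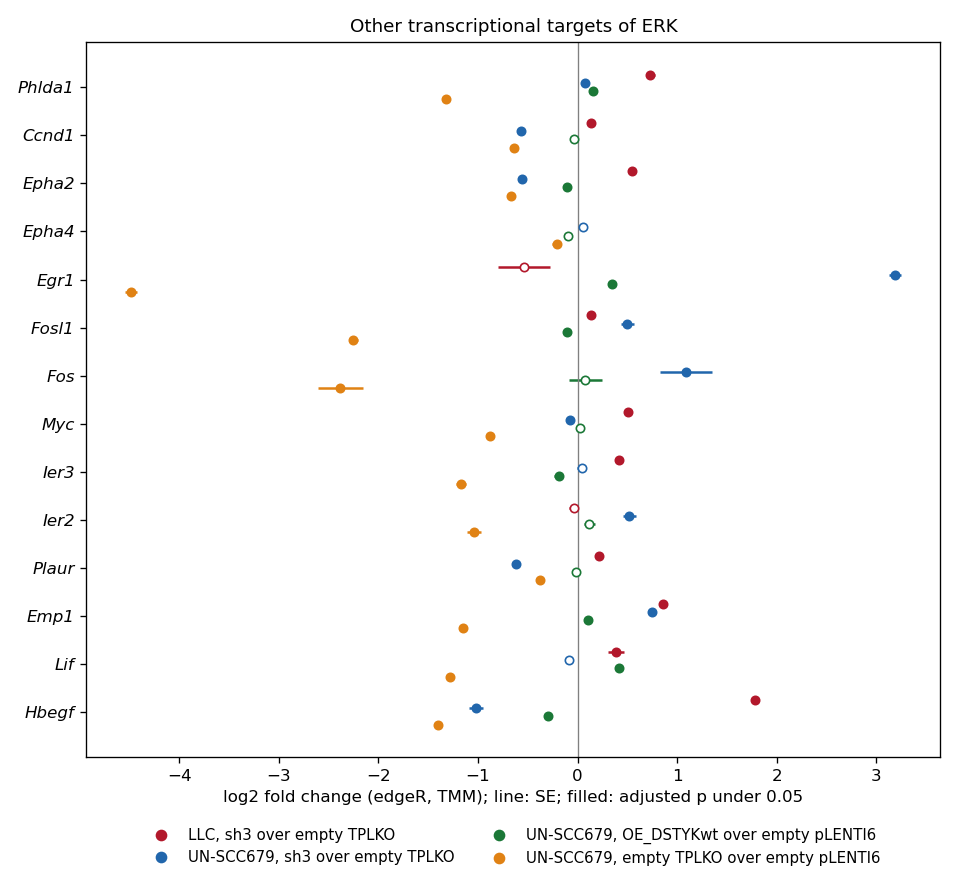
Log2 fold change (horizontal axis) of 14 other transcriptional targets of ERK in the 3 comparisons with an altered arm and between the UN-SCC679 empty-vector populations; lines are SE, filled points have an adjusted p under 0.05, and genes under the count filter have no point. All 14 lie to the left of 0 in empty TPLKO over empty pLENTI6, and 10 of 12 are filled to the right of 0 in LLC.

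Of 20 core kinases and adaptors of the cascade, 10 were higher and 9 lower in LLC with sh3 (median 0.005), 10 higher and 7 lower in UN-SCC679 with sh3 (median 0.08), and 2 higher and 3 lower with OE_DSTYKwt (median -0.02), where 15 were not called. Map2k2, the MEK2 gene, averaged 74.7 ± 0.252 TPM in LLC with sh3, against 117 ± 4.83 TPM with empty TPLKO (-0.71 ± 0.027; adjusted p = 9.39e-11). Shc1, which encodes a receptor adaptor, averaged 147 ± 2.03 TPM in UN-SCC679 with sh3, against 88.3 ± 2.09 TPM (0.78 ± 0.021; adjusted p = 5.91e-11).

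Among other inhibitors of RAS-ERK signalling, 3 of 13 were higher and 6 lower in LLC with sh3, 6 of 12 higher and 3 lower in UN-SCC679 with sh3, and 1 of 12 higher and 3 lower with OE_DSTYKwt. Il17rd, the gene of the FGF receptor antagonist also called Sef, averaged 8.08 ± 0.412 TPM in UN-SCC679 with sh3, against 2.29 ± 0.235 TPM with empty TPLKO (1.86 ± 0.054; adjusted p = 8.57e-11). Dab2ip, a RAS GTPase-activating protein gene, averaged 0.52 ± 0.0445 TPM with OE_DSTYKwt, against 2.71 ± 0.404 TPM with empty pLENTI6 (-2.41 ± 0.087; adjusted p = 1.39e-07). In the list of other MAP kinase phosphatases, 4 of 7 were higher and 2 lower in LLC with sh3, with Dusp10 and Dusp16, which act on p38 and JNK, higher by 0.95 ± 0.054 and 0.81 ± 0.04. In UN-SCC679 with sh3 the list had 1 of 7 higher (Dusp2, 3.46 ± 0.541 TPM with sh3, against 0.255 ± 0.0579 TPM) and 6 lower. With OE_DSTYKwt 1 of 7 was higher, Dusp10 by 0.18 ± 0.046.

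Other ETS genes held the third PEA3 factor, Etv1, which averaged 9.37 ± 0.586 TPM in UN-SCC679 with sh3, against 2.54 ± 0.578 TPM with empty TPLKO (2.10 ± 0.07; adjusted p = 2.67e-10). In that arm 5 of 10 ETS genes were higher and 2 lower; in LLC with sh3 it was 2 higher and 5 lower of 10, and with OE_DSTYKwt 1 higher and 0 lower of 9. The 4 genes of the ubiquitin ligase that degrades ETV proteins (Cop1, Det1, Ddb1 and Cul4a) split 2 and 2 in LLC with sh3, Det1 falling by 0.67 on the log2 scale, and counted 0 higher and 2 lower in UN-SCC679 with sh3 and 2 higher and 1 lower with OE_DSTYKwt. Receptors upstream numbered 6 higher and 4 lower of 11 in LLC with sh3, 6 and 5 in UN-SCC679 with sh3, and 5 and 2 with OE_DSTYKwt. Pdgfra, a PDGF receptor gene, was called higher in each of the 3: 7.93 ± 0.566 TPM in LLC with sh3 against 3.94 ± 0.372 TPM, 15.3 ± 0.221 TPM in UN-SCC679 with sh3 against 1.93 ± 0.162 TPM, and 9.7 ± 0.536 TPM with OE_DSTYKwt against 4.58 ± 0.83 TPM.

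The genes most like each member over the 6 group means were found among 11129 genes as those with the smallest root mean square difference of centred log2(TPM + 1). Spred2 lay closest to Ier5 (0.0743) and Spred1 to Mast4 (0.0662). Dusp6 lay closest to Socs3 (0.203), the gene of a suppressor of cytokine signalling, and Etv5 to Tigit (0.133). For Spry2 it was Zfp52 (0.104), for Dusp4 Adamts14 (0.213), for Dusp5 Nnt (0.278), for Spry1 Vegfc (0.284) and for Etv4 Soat2 (0.296). Only Spry4 had another member, Etv4, as its nearest gene (0.367). With 6 group means from 2 lines, these are descriptions of shared levels.

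At the transcript level, Dusp4, Dusp5, Spry2 and Spry4 have 1 listed transcript each, so their counts need no split. Of the 4 Dusp6 transcripts, Dusp6-201 took 82.8% to 96.1% of the Dusp6 counts in every library. Spry1 counts were split unstably: Spry1-203 took 79.2%, 72.1% and 0.516% of them in the LLC libraries with sh3, against 62.7%, 100% and 84.1% with empty TPLKO, so no transcript of Spry1 is resolved. The gene total varied less than this split, at 9.27, 8.3 and 7.15 TPM with sh3 against 7.08, 6.72 and 6.62 TPM with empty TPLKO. Etv4 and Etv5 have 12 and 5 listed transcripts, and their TPM depends on this split more than their counts do. For Etv5 in LLC, the transcript Etv5-203 took 40%, 33.8% and 30.2% of the counts with sh3, against 49.9%, 51.4% and 44.8% with empty TPLKO. These groups do not overlap, while in UN-SCC679 with sh3 the shares of 35.1%, 52.1% and 25.2% overlap those of 0.00123%, 48.8% and 32.1% with empty TPLKO. This transcript comparison was chosen after the counts had been seen and was not tested.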

How the data were processed

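The 18 libraries were made with a stranded mRNA kit and sequenced in 75-base reads, per the labels' protocols; kallisto and sleuth were used with build mm10, per the submitters' processing notes, which give no version. Deposited for each transcript were estimated counts and TPM, per the file headers; kallisto divides reads that match several transcripts between them. Deposited TPM equalled estimated counts over effective length, rescaled to one total. Of 118489 transcripts, 116816 matched a gene of GENCODE M21 (GRCm38); the other 1673, with 0.515% to 0.593% of counts, were left out. Both values were summed per gene, and estimated counts were rounded. Depth was 40525385 to 46528071 estimated counts per library, and reads carried no molecular identifiers.

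Groups came from the sample titles. The test was edgeR 4.0.16 (R 4.3.3), quasi-likelihood, on the 6 libraries of a comparison or the 12 of a difference between effects, with TMM scaling, a minimum count of 10 and total of 15, and Benjamini-Hochberg adjustment over all genes at 0.05. SE came from the F statistic and intervals are 95%. Alternatives were library size alone, RLE scaling, a filter of 1 CPM in 3 libraries, no filter, DESeq2 1.42.0, limma 3.58.1 on log2(TPM + 1) and log2(TPM + 0.1), an effective length offset, a dispersion over all 18 libraries, a replicate block and leaving out each library. The fit was tested on simulated data. The members and the other lists were chosen with earlier results of these data known. Named from each other list were at most the 3 called genes with the smallest adjusted p in a comparison. Hbegf in UN-SCC679 with sh3 falls outside that rule and was chosen after its values were seen. Egr1 and Ier2 in LLC with sh3 also fall outside it, being named as not called. Likeness used genes with a curated symbol and a mean TPM of at least 1. Protein sequences were not used here.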

Additional observations from a re-analysis of the deposited data

Results flagged for a closer look

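The effect of sh3 differed between the lines, by an interaction term in edgeR over 12 libraries with Benjamini-Hochberg adjustment, for 8 of 10 members, where 59.9% of 15399 genes were called. The sh3 effect in LLC minus that in UN-SCC679, on the log2 scale, was 1.72 for Dusp4, 1.71 for Spry1, 0.43 for Etv4, 0.38 for Spry4, -0.37 for Dusp6, -0.65 for Spred1, -0.79 for Etv5 and -1.08 for Spred2. For Dusp4, Spry1, Spred1 and Spred2 the called changes had opposite directions in the lines. Of these calls, that of Spry1 in LLC was lost with limma on log2(TPM + 1) (adjusted p = 0.0583). That of Dusp4 in UN-SCC679 was lost in edgeR without sh3 replicate 3 (adjusted p = 0.0508). For Dusp6 and Etv5 both changes were higher and differed in size. For Etv4 and Spry4 the change was called in LLC and not in UN-SCC679. The Etv4 difference between the lines was not called with limma on log2(TPM + 1) (adjusted p = 0.0542). Dstyk also fell further in LLC, by 0.40 more on that scale (difference -0.40 ± 0.062, adjusted p = 3.5e-05), and the part of this in the members' differences was not tested.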

How the results depend on the processing

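Over the 10 members and Dstyk, 1364 values were recomputed under the alternatives: 1309 kept direction and side of the threshold, 39 were no longer called, 6 became called and 10 turned direction. Counts of members called ranged over 7 to 8 in LLC with sh3, 6 to 7 in UN-SCC679 with sh3 and 4 to 7 with OE_DSTYKwt, over 10 in all settings between the lines and 9 to 10 between the empty vectors. The changes of direction concern values not called either way. The difference of sh3 effects on Dusp5 was -0.02 with library size alone, -0.01 with limma at either pseudocount, and between -0.06 and 0.10 without 1 library. With OE_DSTYKwt, leaving out 1 library gave -0.03 to 0.03 for Spred1 and -0.002 to 0.06 for Spry2. The cause was not tested.

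Deviations of same-numbered libraries correlated between -0.08 and 0.07, and some but not all libraries correlated best with their own number. Such values show no strong pairing by replicate number and do not exclude a weak one. With a replicate block, 8 members were called in LLC with sh3, 7 in UN-SCC679 with sh3 and 5 with OE_DSTYKwt, where Dusp6 lost its call (adjusted p = 0.0716), and 9925, 8806 and 3771 genes in all, against 9995, 9112 and 4154 without it. For the sh3 effect minus the OE_DSTYKwt effect it called 5 members, Dusp4 being lost (0.0847). No scaling alternative moved the median of all genes by over 0.1. Depth limits Spry4 most, with 102 to 141 counts per UN-SCC679 TPLKO library.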
